A study of Mus musculus with 3 samples.

Results

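The 10 lipid-associated macrophage genes *Trem2*, *Tyrobp*, *Cd9*, *Gpnmb*, *Apoe*, *Spp1*, *Lgals3*, *Fabp5*, *Ctsd* and *Lipa* were taken by symbol from the 32285 genes counted in single-cell RNA-Seq of mouse diaphragm. Each of the 3 libraries held mononuclear cells of the costal diaphragm of male mice after 6 months of feeding: C57Bl/6J wild-type mice on control diet (WT CD), C57Bl/6J mice on high-fat diet (WT HFD) and B6.129S2-Thbs1tm1Hyn/J mice, which lack the matricellular protein thrombospondin 1 in the whole body, on the same high-fat diet (KO HFD). The tissue was digested with collagenase II, cells that took up the dye DAPI were sorted out as dead, and the 3′ ends of transcripts were counted by unique molecular identifier (UMI) with the 10x Genomics V3.1 kit. By the methods, cells of 2 mice were pooled in each library and were not tagged by mouse, and no KO library on control diet was among the samples analysed here, so each group is 1 sample and the effect of the genotype on control diet was not measured.

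TREM2 is a surface receptor of macrophages and microglia that binds lipids and apolipoproteins, and it signals through the adaptor TYROBP (DAP12), whose cytoplasmic motif recruits the kinase SYK. In obese adipose tissue, atherosclerotic plaques and other sites of lipid load, macrophages that have taken up lipid express a shared set of genes that includes this receptor, secreted proteins such as osteopontin, the fatty-acid carrier FABP5 and lysosomal enzymes that break down protein and cholesteryl esters. The same genes are not particular to macrophages: CD9, apolipoprotein E and osteopontin are also made by glia, stromal cells and progenitors.

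Macrophages were taken as the cells with at least 5 UMIs of *C1qa*, *C1qb* and *C1qc* together, the chains of complement C1q that tissue macrophages make, and are called C1q macrophages. They were split into *Folr2*/*Cd163*-high cells, with at least 2 UMIs of these resident macrophage receptors together, and *Folr2*/*Cd163*-low cells. None of the 10 genes was used for either step. The gate held 956 of 12275 cells, which is 194 of 4132 in WT CD (4.70%), 395 of 3774 in WT HFD (10.5%) and 367 of 4369 in KO HFD (8.40%). The high and low states held 86 and 108 cells in WT CD, 198 and 197 in WT HFD, and 185 and 182 in KO HFD. The libraries summed to 34312860, 31967976 and 36478779 UMIs, and the gate to 2246927, 4224289 and 4351718. The low cells were the deeper ones, with median UMIs per cell of 11232, 12172 and 11155.5 against 8533, 7475 and 7158 in the high cells, in the order WT CD, WT HFD and KO HFD, which is the order used below.

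The label held up against markers that the gate did not use. Of the 956 gated cells, 884 (92.5%) lay in clusters named macrophage-like from *Cd68*, *Lyz2*, *Adgre1*, *Csf1r*, *Mertk* and *Fcgr1*, and these 6 markers were all detected in each library, led by *Lyz2* at 14350, 19019 and 14646 CPM (UMIs of the gene per 1000000 UMIs of the cells counted). The other 72 cells included 11, 8 and 4 in B cell-like and 3, 14 and 17 in cycling clusters, while 208 macrophage-like cells fell below the gate. The 27 cells just inside the gate, with 5 or 6 C1q UMIs, were *Trem2*-positive at 14.8% and *Tyrobp*-positive at 77.8%, and the 27 just outside, with 3 or 4, at 14.8% and 92.6%. Adipocyte markers summed to 0.445, 0.710 and 0.460 CPM in the gate, whereas markers of fibro-adipogenic progenitors (FAPs) summed to 598, 531 and 303 CPM, with all 5 detected and *Dcn* the most abundant, and B cell markers to 162, 94.0 and 37.5 CPM, with all 4 detected. The sums of these 2 lists were lowest in KO HFD, whereas the immunoglobulin gene *Igkc*, which is not in the B cell list, was lowest in WT HFD (16230, 176 and 1582 CPM). The part of RNA from other cells in the results below was not tested. In WT CD, WT HFD and KO HFD 14, 9 and 9 cell barcodes were shared with another library, of which 1, 0 and 1 lay in the gate.

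*Thbs1* (chr2:118111876-118127133, GRCm38), the gene deleted in the knockout, was read at 136 CPM (95% interval 132 to 140) in WT CD, 202 (197 to 207) in WT HFD and 163 (159 to 168) in KO HFD over all cells. The 3′ reads counted here need not cover the deleted stretch, so this level does not check the genotype. Intervals of CPM are exact Poisson intervals and those of shares exact Clopper-Pearson intervals; both cover counting error only. With 1 library per group no test between diets or genotypes was possible, and differences between libraries are given as ratios without a p-value.

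The genes lie on 7 chromosomes of the GRCm38 build, so they are not a linked cluster: *Trem2* at chr17:48346401-48354147, *Tyrobp* at chr7:30413760-30417585, *Cd9* at chr6:125460266-125494791, *Gpnmb* at chr6:49036546-49070929, *Apoe* at chr7:19696109-19699188, *Spp1* at chr5:104435118-104441050, *Lgals3* at chr14:47367751-47386160, *Fabp5* at chr3:10012548-10016607, *Ctsd* at chr7:142375911-142388038 and *Lipa* at chr19:34492318-34527474. In the annotation *Spp1* overlaps the gene model Gm42793 and *Ctsd* the model Gm49369 on the same strand, so that reads of those models could not be fully told apart from theirs. RefSeq promoters (GRCm38.p6) were matched for 8 of the 10 genes; *Tyrobp* and *Fabp5* had no entry. In the 250 bases before each annotated start, 5 motifs were searched on both strands: the E-box CACGTG (in 6.02% of 32851 promoters), the lysosomal CLEAR core TCACGTGA (0.785%), which contains an E-box, the M-box TCATGTGA of the MITF/TFE family (0.846%), the PU.1 motif GAGGAAGT of myeloid genes (2.44%) and the AP-1 motif TGAGTCA (4.46%). Among the 8 matched genes, *Ctsd* alone held an E-box and the CLEAR core, *Spp1* alone the PU.1 letters, and none the M-box or AP-1 letters. A match describes the letters and not a bound site. Shown are the windows of these 2 genes (minus strand of chr7:142387828-142388077; plus strand of chr5:104434861-104435110), with the motifs in capitals, and that of the receptor *Trem2* (plus strand of chr17:48346151-48346400), which held none of the 5.
Ctsd: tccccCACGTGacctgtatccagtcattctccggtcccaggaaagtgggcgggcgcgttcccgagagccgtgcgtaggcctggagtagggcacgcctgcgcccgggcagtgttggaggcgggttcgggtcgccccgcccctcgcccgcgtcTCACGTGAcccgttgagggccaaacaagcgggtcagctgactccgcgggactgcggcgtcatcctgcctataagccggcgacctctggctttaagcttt
Spp1: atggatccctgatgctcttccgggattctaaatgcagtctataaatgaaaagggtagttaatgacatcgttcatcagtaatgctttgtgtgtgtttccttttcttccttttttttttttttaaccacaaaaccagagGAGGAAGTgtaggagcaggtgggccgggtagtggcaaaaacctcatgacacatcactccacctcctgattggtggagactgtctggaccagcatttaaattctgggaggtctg
Trem2: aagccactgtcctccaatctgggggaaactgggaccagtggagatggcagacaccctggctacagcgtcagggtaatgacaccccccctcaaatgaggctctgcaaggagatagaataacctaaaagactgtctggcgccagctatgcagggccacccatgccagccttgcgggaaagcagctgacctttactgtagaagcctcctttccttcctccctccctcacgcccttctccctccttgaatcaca

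C1q macrophages carried more RNA of 7 of the 10 genes than the remaining cells of the diaphragm, and less of *Cd9*. Counts were summed per library within and outside the gate and tested with edgeR's quasi-likelihood method with the library as a block, with p-values adjusted over 14392 genes; these p-values measure how alike the contrast was in 3 libraries of different groups. Of all genes tested, 28.1% were higher and 32.5% lower in C1q macrophages. The receptor *Trem2* showed the widest difference of the 10, at 114, 154 and 229 CPM inside the gate against 2.37, 3.97 and 5.48 CPM outside (log2 fold 5.72 ± 0.11 SE, adjusted p = 1.81e-10). Its adaptor *Tyrobp* stood at 1305, 1830 and 1665 CPM against 111, 98.9 and 175 (3.98 ± 0.21, adjusted p = 5.05e-06). The groups did not overlap for either gene in any library.

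Of the secreted proteins, *Apoe*, the lipoprotein ligand of the LDL receptor family, stood at 5403, 6239 and 5593 CPM in the gate against 545, 459 and 621 outside it (log2 fold 3.72 ± 0.15, edgeR adjusted p = 1.45e-08). *Lgals3*, which encodes the glycan-binding lectin galectin-3, stood at 871, 1237 and 2598 CPM against 125, 153 and 214 (3.45 ± 0.17, adjusted p = 3.96e-07). Smaller differences were found for the fatty-acid carrier *Fabp5* (1.82 ± 0.17), for *Lipa*, the lysosomal acid lipase that splits cholesteryl esters (1.58 ± 0.13), and for the lysosomal aspartic protease *Ctsd* (1.53 ± 0.12), with edgeR adjusted p of 7.71e-05, 8.15e-06 and 2.05e-06. *Cd9*, a tetraspanin of the cell surface, was lower in the gate at 103, 317 and 220 CPM against 655, 780 and 676 (-1.52 ± 0.34, edgeR adjusted p = 0.0260). This call was lost, at log2 folds of -1.40 to -1.64, in gated cells of macrophage-like clusters, without doublets, without the low-count filter and without KO HFD, with edgeR adjusted p of 0.0803, 0.0551, 0.119 and 0.0521.

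For 2 genes the difference between the gate and the rest did not pass the test. *Spp1*, which encodes osteopontin, stood at 6.68, 32.2 and 121 CPM inside and 8.17, 16.5 and 9.65 CPM outside (log2 fold 2.21 ± 1.10 SE, edgeR adjusted p = 0.218). *Gpnmb*, a transmembrane glycoprotein of lysosome-rich phagocytes, stood at 1.34, 22.02 and 88.9 CPM inside and 23.9, 25.4 and 27.6 CPM outside (0.57 ± 1.09, adjusted p = 0.705). Both were lower inside the gate than outside it in WT CD and higher in KO HFD, with *Gpnmb* still slightly lower inside in WT HFD. Without KO HFD the log2 fold of *Spp1* was 0.93 and past the edgeR threshold (adjusted p = 0.0380), as it was after thinning (2.05, adjusted p = 2.20e-10) and without the 24 cells described below (0.99, adjusted p = 0.0189). The median log2 fold over the 10 genes was 2.02, and over all genes tested it was -0.07.

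Other genes of the same pathways were counted from lists of known function. All 10 genes of TREM2 signalling were higher in C1q macrophages, among them *Syk*, the kinase that TYROBP recruits (log2 fold 2.71 ± 0.10), and *Ms4a7* (8.28 ± 0.13), a member of the MS4A family of membrane proteins. Of 17 lysosomal genes 15 were higher, among them *Psap* (1.59 ± 0.10), *Ctsb* (2.07 ± 0.11) and *Ctss* (3.85 ± 0.21), and 1, the protease gene *Ctsl*, was lower (-1.32 ± 0.17). Of 15 genes of cholesterol and lipid handling 12 were higher, such as the phospholipid transfer protein *Pltp* (4.18 ± 0.12) and the cholesterol exporter *Abca1* (1.64 ± 0.09), and 2 were lower, with the lipoprotein receptor *Lrp1* at -1.65 ± 0.11. The 14 further genes that are named with lipid-associated phagocytes were divided: 6 were higher, such as the lipase *Lpl* (0.60 ± 0.18), and 5 lower, such as *Fabp4* (-1.46 ± 0.26), *Cd63* (-1.02 ± 0.18) and *Lgals1* (-0.34 ± 0.13). All 10 resident macrophage genes were higher, and of 8 monocyte genes 1 was higher (*Ccr2*, 3.99 ± 0.18) and 3 were lower. Median log2 folds of these lists were 2.68, 1.24, 1.05, 0.21, 4.13 and -1.43 in this order.

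Across 19 populations, made of both macrophage states, macrophage-like cells below the gate and the other clusters grouped by their markers, with erythroid-like (59) and myofiber-like cells (55) left out for having under 10 cells in 1 library, 5 of the 10 genes had their highest mean in a macrophage population (*Trem2*, *Apoe*, *Lgals3*, *Lipa* and, through KO HFD alone, *Gpnmb*). The order of means is a description, since each SD rests on 3 libraries of different groups, and the leading population stood apart from the next in the range of its 3 libraries for *Cd9* and *Spp1* only. *Trem2* was highest in the *Folr2*/*Cd163*-high state (217 ± 86.0 CPM, SD, n = 3 libraries), followed by the low state (127 ± 34.4) and then by mesothelial-like cells (84.8 ± 33.9), the lining cells of the diaphragm surface; the ranges of neighbours in this order overlapped. *Tyrobp* was led by neutrophil-like (3894 ± 320) and monocyte-like cells (3438 ± 405), followed by the low state (1740 ± 324), macrophage-like cells below the gate (1699), the high state (1404 ± 211) and dendritic-like cells (1211 ± 172). *Apoe* peaked in the high state (9745 ± 890) and in an unnamed cluster led by *Col20a1* (8134), ahead of monocyte-like cells (2917), the low state (2847 ± 406) and muscle stem cells (MuSC-like, 1898 ± 236).

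The mesothelial *Trem2* signal was found in 51 of 173 cells (29.5%) and came without its adaptor. *Trem2* stood at 104 CPM (75.9 to 138) in 38 mesothelial-like cells of WT CD, 45.6 (32.7 to 61.9) in 84 of WT HFD and 105 (79.8 to 136) in 51 of KO HFD. Of the 51 *Trem2*-positive mesothelial-like cells, 2 held a *Tyrobp* UMI and 4 a C1q UMI, whereas 411 of the 412 *Trem2*-positive C1q macrophages held *Tyrobp*, and all 22 *Trem2*-positive monocyte-like cells did. No *Trem2* UMI was found in 682 B cell-like cells (median 8143 UMIs), which allows a share of cells with a *Trem2* UMI of up to 0.440%, nor in 1181 MuSC-like cells (median 5056 UMIs; up to 0.254%). The median of mesothelial-like cells was 9970 UMIs, and 39.5%, 23.8% and 31.4% of them held a *Trem2* UMI in the 3 libraries.

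*Cd9* was led by Schwann-like cells, the glia of nerves in the muscle (4882 ± 571 CPM), the *Col20a1* cluster (2509) and lymphatic-like cells (2046 ± 156), and 93.5% of FAP-like cells were *Cd9*-positive (814 ± 47.9 CPM). *Spp1* was led by Schwann-like cells as well, at 1211, 1270 and 1329 CPM in 21, 18 and 18 cells, of which 33.3% were positive. The second value, 179 ± 164 CPM in lymphatic-like cells, came from 1 cell in WT CD and 1 cell in WT HFD and was 0 in KO HFD. *Gpnmb* had a mean of 43.8 ± 57.8 CPM in the low state and of 36.5 ± 2.29 CPM in FAP-like cells, of which 22.2% were positive. By library the low state stood at 2.22, 19.4 and 109.7 CPM and FAP-like cells at 37.0, 34.0 and 38.5 CPM, so FAP-like cells were higher in WT CD and WT HFD. In KO HFD 1 low cell held 199 of the 266 *Gpnmb* UMIs of the state, and without it the low state stood at 28.1 CPM.

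*Fabp5* was led by endothelial-like cells at 594, 1010 and 773 CPM, with 74.7% of cells positive, followed by Schwann-like (434), mesothelial-like (396 ± 20.3) and *Col20a1*-cluster cells (371) and by low macrophages (250 ± 113), dendritic-like cells (225) and high macrophages (167 ± 130). *Lgals3* was highest in macrophage-like cells below the gate (2514 ± 648), followed by the low state (1654 ± 772), monocyte-like cells (1639 ± 180), the high state (1438) and dendritic-like cells (1260 ± 248). *Ctsd* was led by neutrophil-like cells (693 ± 149) and the low (607 ± 147) and high states (540 ± 150), and *Lipa* by the high state (155 ± 51.1), the cells below the gate (146) and the low state (141 ± 37.6). C1q macrophages held 84.0% of all *Trem2* UMIs of the data set, 60.1% of those of *Tyrobp*, 55.6% of *Apoe* and 55.0% of *Lgals3*, but 27.8% of *Fabp5*, 23.4% of *Lipa*, 22.8% of *Ctsd* and 3.78% of *Cd9*. The share was lowest in WT CD for each gene, from 77.2%, 85.5% and 85.0% for *Trem2* and 45.2%, 73.8% and 56.4% for *Tyrobp* to 11.7%, 27.6% and 26.4% for *Ctsd* and 1.09%, 5.82% and 4.22% for *Cd9*. It differed most for *Spp1*, at 5.42%, 22.9% and 62.9%, and *Gpnmb*, at 0.390%, 11.7% and 30.4%, and the gate itself held 4.70%, 10.5% and 8.40% of the cells. *Apoe* UMIs were also found in 39.3% of B cell-like cells, and the part of free RNA in this was not tested.

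**Figure D1:**
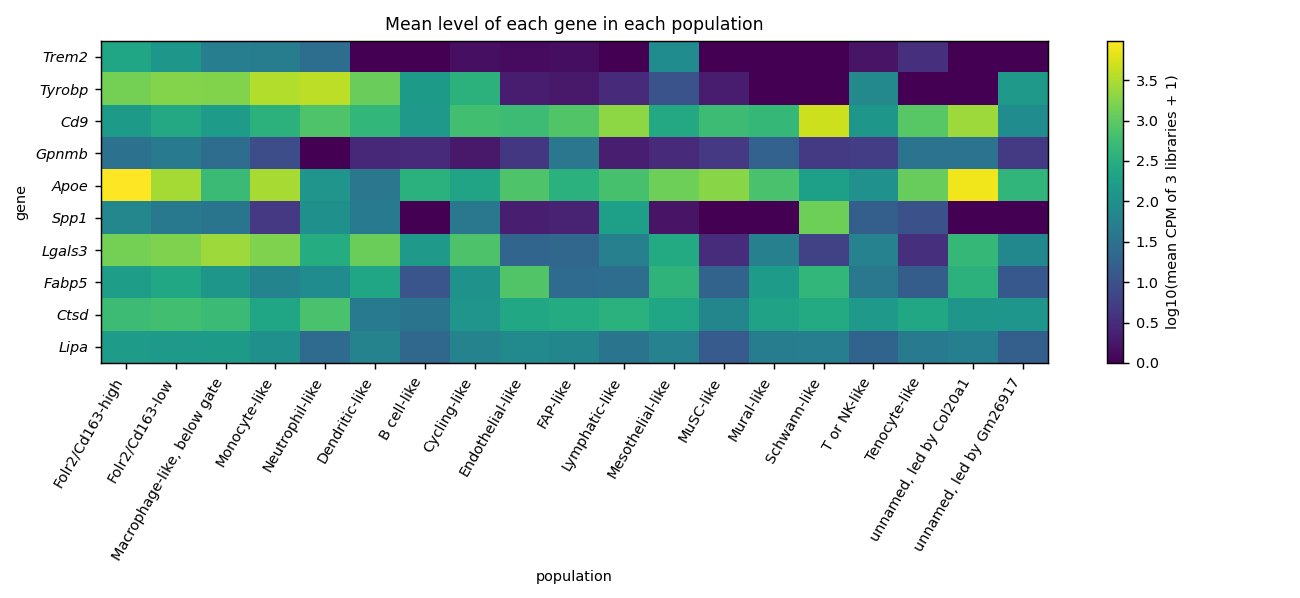
Mean level of each gene over the 3 libraries in 19 cell populations, as log10(mean CPM + 1) on the colour scale. *Trem2* is bright in macrophages and mesothelial-like cells (84.8 CPM), while *Cd9* and *Spp1* are brightest in Schwann-like cells (4882 ± 571 CPM for *Cd9*) and *Fabp5* in endothelial-like cells.

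Between the macrophage states, 2 of the 10 genes were higher in *Folr2*/*Cd163*-low cells and 2 in *Folr2*/*Cd163*-high cells by edgeR with the library as a block, where 6.41% and 7.16% of the 8844 genes tested were called in these directions. *Apoe* was the clearest: it stood at 8916, 10686 and 9633 CPM in the high cells and at 3068, 3095 and 2379 CPM in the low cells (log2 fold low over high -1.69 ± 0.08 SE, adjusted p = 3.24e-07), with no overlap of the states. *Trem2* followed it, at 146, 193 and 313 CPM in the high and 93.4, 127 and 162 CPM in the low cells (-0.64 ± 0.11, adjusted p = 0.00317), although the low cells of KO HFD lay above the high cells of WT CD. *Tyrobp* went the other way, at 1160, 1523 and 1530 CPM in the high and 1402, 2047 and 1772 CPM in the low cells (0.40 ± 0.07, adjusted p = 0.00415), a call lost without the library block (0.41, edgeR adjusted p = 0.0817). *Ctsd* was 372, 586 and 662 CPM in the high and 438, 701 and 682 CPM in the low cells (0.27 ± 0.08, adjusted p = 0.0466), a call close to the threshold that was lost under 11 of 18 alternatives, the omission of any 1 library included. By these gates the receptor and its adaptor were higher in opposite states in each of the 3 libraries, but the *Trem2* call was lost without the cluster led by *Saa3* and *Alox15* (-0.41, edgeR adjusted p = 0.0601), without the library block (-0.67, adjusted p = 0.270), without KO HFD and after thinning.

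The remaining 6 genes did not pass the test. Their log2 folds, low over high, were 0.82 ± 0.39 for *Cd9*, 0.81 ± 0.67 for *Fabp5*, 0.52 ± 0.29 for *Gpnmb*, 0.49 ± 0.20 for *Lgals3*, -0.03 ± 0.11 for *Lipa* and -0.12 ± 1.11 for *Spp1*, with edgeR adjusted p from 0.235 to 0.970. *Spp1* was lower in the high cells of WT CD (4.46 against 8.15 CPM) and WT HFD (11.4 against 46.9) and higher in those of KO HFD (191 against 64.4), where 1 high cell held 305 of the 369 *Spp1* UMIs of the state. Without the top cell of each state the KO HFD levels were 33.7 CPM in the high and 36.5 CPM in the low cells. Without KO HFD its log2 fold was 1.94 (edgeR adjusted p = 0.00595). Without that library *Cd9* (1.24, adjusted p = 0.0109) and *Lgals3* (0.72, adjusted p = 0.00975) passed as well by edgeR and *Trem2* (-0.53, adjusted p = 0.0722) did not, and without WT HFD *Gpnmb* passed (0.96, adjusted p = 0.0296). When every cell was thinned to 3000 UMIs before the gates were applied, which changes the depth and also which cells fall into each state, the log2 fold of *Trem2* turned to 0.49 (edgeR adjusted p = 0.0687), that of *Tyrobp* stayed past the threshold at 0.48, and *Cd9* (2.38), *Fabp5* (2.15) and *Lgals3* (1.94) passed it with edgeR adjusted p of 3.53e-07, 7.02e-09 and 7.09e-13. With the states kept and the cells thinned afterwards, 28.0%, 27.5% and 34.4% of high and 23.3%, 26.4% and 26.01% of low cells were *Trem2*-positive. *Lgals3* also passed without the low-count filter (0.53), with DESeq2 (0.52) and without the 24 cells described below (0.95), *Cd9* with DESeq2 (0.85), and *Gpnmb* with the split at 4 UMIs (2.41). The median over the 10 genes was 0.34 and over all genes -0.01.

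**Figure D2:**
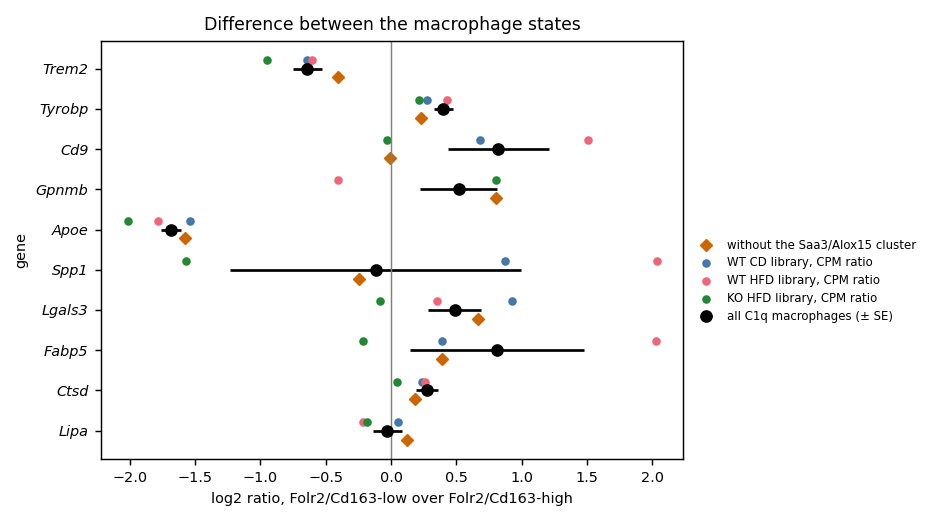
Log2 ratio of *Folr2*/*Cd163*-low over *Folr2*/*Cd163*-high cells for each gene: black points are the edgeR estimate with its SE, small coloured points the CPM ratio of each library, and orange diamonds the estimate without the *Saa3*/*Alox15* cluster. *Apoe* and *Trem2* lie left of 0 in all 3 libraries and *Tyrobp* right of it, while *Spp1*, *Cd9* and *Fabp5* spread to both sides.

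The states differed most in other genes. The 5 genes with the largest folds towards the low cells were *Saa3* (log2 fold 9.47), *Alox15* (8.76), *Prg4* (7.31), *Prtn3* (6.44) and *Icam2* (5.03), and towards the high cells *Cd209g* (-8.51), *Cd209f* (-8.19), *Cd209d* (-5.30), *Lyve1* (-5.28) and *Chp2* (-4.10), all past the edgeR threshold. *Saa3* and *Alox15* led 1 macrophage-like cluster that gave 6.48%, 28.4% and 7.69% of the low cells and held 8, 56 and 14 gated cells. In that cluster *Trem2* was read at 115, 10.2 and 9.38 CPM and *Gpnmb* at 0 in all 3 libraries, whereas *Cd9* was read at 529, 898 and 840 CPM and *Fabp5* at 433, 607 and 394 CPM. Low cells of the high-fat libraries thus included a group with much *Cd9* and little *Trem2*. Without this cluster the *Cd9* log2 fold between the states was -0.01, that of *Trem2* was -0.41 and no longer past the threshold, and that of *Gpnmb* was 0.80 and past it.

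Lists of related genes were divided between the states. Of 10 TREM2 signalling genes 1 was higher in the low state (*Plcg2*, the phospholipase downstream of SYK, 0.59 ± 0.17) and 4 in the high state, among them *Ms4a7* (-1.47 ± 0.12) and *Ms4a6d* (-1.32 ± 0.13). Of 18 lysosomal genes 3 were higher in the low state, namely *Psap* (0.39 ± 0.09), *Ctss* (0.35 ± 0.07) and *Ctsz* (0.39 ± 0.09), and 6 in the high state, with *Ctsb* at -0.73 ± 0.07. Of 13 further phagocyte genes 4 were higher in each, with the actin-capping protein *Capg* (0.49 ± 0.08) and *Lpl* (0.73 ± 0.16) in the low and *Lgals1* (-0.59 ± 0.12) and *Cd63* (-1.09 ± 0.09) in the high state. Cholesterol and lipid genes gave 2 of 15 each way, with *Lrp1* (0.37 ± 0.10) and the lipid-sensing nuclear receptor *Pparg* (1.28 ± 0.30) in the low and *Pltp* (-0.36 ± 0.08) and *Abca1* (-1.43 ± 0.15) in the high state. Of 10 resident macrophage genes 9 were higher in the high state, with *Pf4* at -1.23 ± 0.08, genes of the same resident type as the receptors that defined this state, and of 3 monocyte genes tested *Ccr2* was higher in the low state (0.98 ± 0.11). Medians were -0.25, -0.33, 0.29, 0.10, -2.07 and 1.03 in this order.

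Between the libraries, 3 of the 10 genes reached a 1.5-fold higher level in C1q macrophages of WT HFD than of WT CD, and a different 3 in KO HFD against WT HFD; none reached it in the other direction, although *Cd9* passed it downwards in KO HFD against WT HFD after thinning before the gates. A gene was counted where 1 of the 2 libraries held at least 50 CPM, which left 8 of the 10 genes for the first comparison and all 10 for the second. In the second, *Spp1* (32.2 and 121 CPM) and *Gpnmb* (22.02 and 88.9 CPM) passed this minimum through KO HFD alone, the library where they were high. Without the 1 cell with most *Gpnmb* UMIs that gene stood at 43.6 CPM in KO HFD, under the minimum. The counts of the second comparison are therefore a description. Of all such genes, 4.81% (119 of 2476) were higher and 2.63% (65) lower in WT HFD than in WT CD, and 1.86% (46 of 2473) were higher and 3.11% (77) lower in KO HFD than in WT HFD. The comparisons share the WT HFD library, so their values are not independent of each other. The median log2 ratio over the genes tested was 0.50 in the first comparison, against 0.06 for all genes, and 0.37 in the second, against 0.03.

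*Trem2* was read at 114 CPM (101 to 129) in WT CD, 154 (142 to 166) in WT HFD and 229 (215 to 244) in KO HFD. These Poisson intervals did not overlap, but they treat UMIs as independent and leave out the spread between cells. The top 5 cells held 29.6%, 24.7% and 27.1% of the *Trem2* UMIs of the gate. The *Trem2* levels were 1.35-fold and 1.49-fold apart (log2 ratio 0.43, 0.22 to 0.64, and 0.57, 0.43 to 0.72), both under the 1.5-fold bound. The share of *Trem2*-positive cells moved less: it was 39.2%, 42.3% and 46.1% of C1q macrophages, and 25.4%, 27.0% and 30.3% at 3000 UMIs per cell, after 9, 13 and 14 shallower cells were left out. The difference was 3.103 percentage points between WT HFD and WT CD (Newcombe interval -5.38 to 11.3) and 3.77 points between KO HFD and WT HFD (-3.27 to 10.8), with intervals that include 0, cover counting error only and say nothing of the spread between mice. *Tyrobp* was read at 1305, 1830 and 1665 CPM in 97.9%, 96.5% and 98.9% of cells, a log2 ratio of 0.49 and then of -0.14.

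*Cd9* had the largest ratio between the diets among the genes over 50 CPM, at 103, 317 and 220 CPM, which was 3.07-fold in WT HFD over WT CD (log2 ratio 1.62, 1.41 to 1.82) and 0.695 times in KO HFD over WT HFD. *Gpnmb* was found in 3, 15 and 24 cells with 3, 93 and 387 UMIs, or 1.34, 22.02 and 88.9 CPM (log2 ratio 4.04, 2.45 to 6.35, from counts of 3 and 93 and under 50 CPM in both, and then 2.01, 1.68 to 2.36). *Gpnmb* thus stood in the order of the libraries in both cells and UMIs, with 1.55%, 3.80% and 6.54% of cells positive.

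Among the secreted proteins, *Apoe* was nearly level at 5403, 6239 and 5593 CPM (log2 ratios 0.21 and -0.16), in 70.1%, 74.9% and 71.1% of cells. *Spp1* was read at 6.68 CPM (3.74 to 11.01), 32.2 (27.0 to 38.1) and 121 (111 to 131), a log2 ratio of 2.27 (1.497 to 3.15) and then of 1.91 (1.63 to 2.19), in 3.61%, 8.10% and 12.5% of cells. *Lgals3* was read at 871, 1237 and 2598 CPM, 1.42-fold in WT HFD over WT CD and 2.10-fold in KO HFD over WT HFD (log2 ratio 1.07, 1.02 to 1.12). Its share of positive cells was level at 74.2%, 77.5% and 77.4%, so the levels were further apart than the shares. The make-up of the gate also differed between the libraries: the cluster led by *Mmp12* and *Retnla* gave 34.5%, 18.7% and 34.1% of the gate and 49.1%, 30.5% and 58.2% of the low cells. Within that cluster *Lgals3* stood at 1294, 2713 and 3714 CPM, and within the one led by *Cd209f* and *Folr2* at 367, 718 and 1623 CPM. In the former *Trem2* stood at 81.4, 234 and 208 CPM and in the latter at 151, 194 and 295 CPM, and the part of the cluster shares in the library ratios was not tested further.

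*Fabp5* was read at 115, 241 and 292 CPM, 2.09-fold in WT HFD over WT CD (log2 ratio 1.07, 0.87 to 1.27) and 0.28 on the log2 scale in KO HFD over WT HFD. *Ctsd* was read at 412, 653 and 673 CPM, 1.59-fold and then level (log2 ratios 0.67, 0.56 to 0.78, and 0.04). *Lipa* was read at 107, 140 and 193 CPM (log2 ratios 0.39 and 0.46). The 3 lipid and lysosomal genes therefore had their lowest level in the gate in WT CD, as the other 7 members did. When the *Saa3*/*Alox15* cluster was left out, the ratio of *Fabp5* between WT HFD and WT CD went to 0.54 and that of *Cd9* to 0.99 on the log2 scale, while that of *Trem2* went up to 0.75, and in KO HFD over WT HFD *Fabp5* went to 0.99 and *Cd9* to 0.20.

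**Figure D3:**
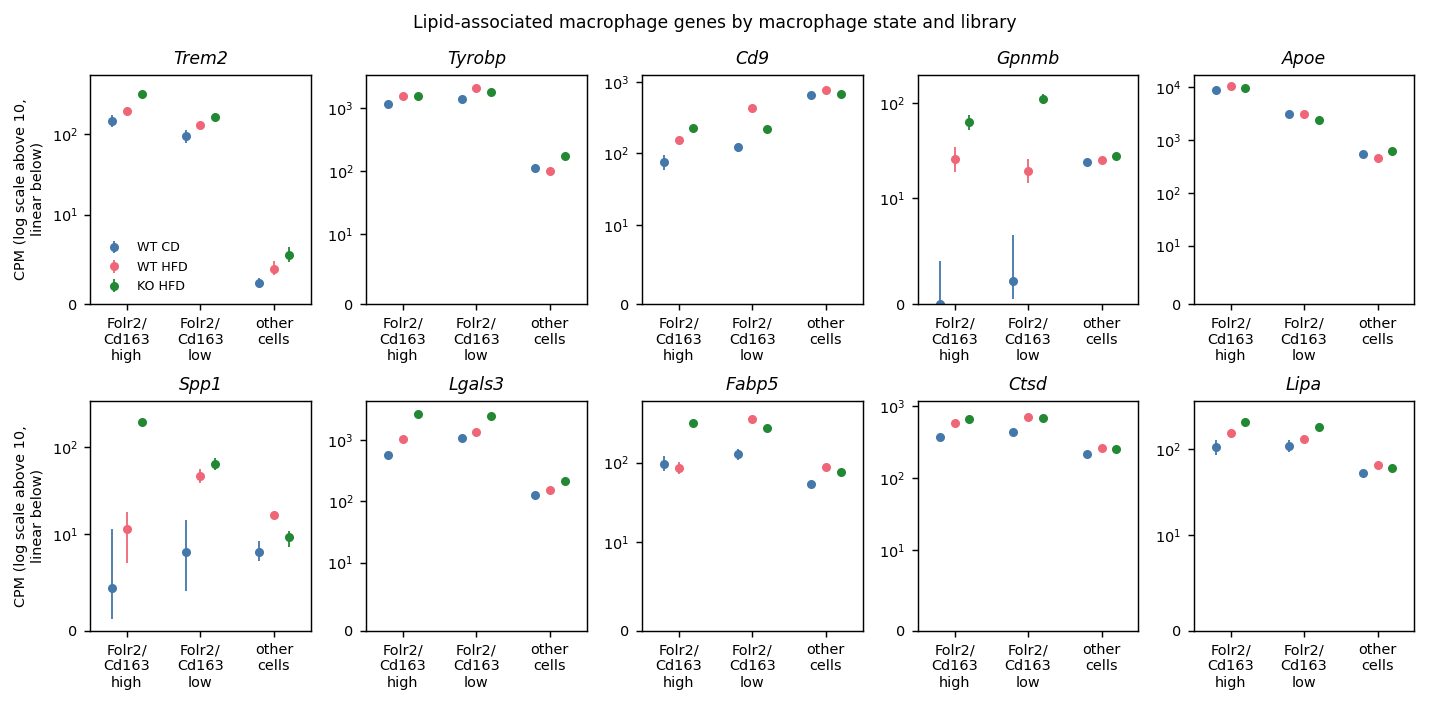
CPM of each gene in *Folr2*/*Cd163*-high and -low macrophages and in all other cells, by library (log scale above 10 CPM, linear below; bars are exact 95% Poisson intervals). *Trem2* stands higher in WT HFD than in WT CD and highest in KO HFD in both states (146, 193 and 313 CPM in the high state), and in the macrophage states of WT CD *Gpnmb* (0 and 2.22 CPM) and *Spp1* (4.46 and 8.15 CPM) lie under 10 CPM.

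The states did not give the same ratios for every gene. In KO HFD over WT HFD the log2 ratio of *Cd9* was 0.55 in the high and -0.99 in the low cells, and that of *Fabp5* 1.89 in the high and -0.36 in the low cells. *Spp1* went from 11.4 to 191 CPM in the high cells (log2 ratio 4.07) and from 46.9 to 64.4 CPM in the low cells, but without the top cell of each library the values were 7.52 and 33.7 CPM in the high cells (log2 ratio 2.17) and 32.05 and 36.5 CPM in the low cells. *Trem2* had a ratio of 0.70 in the high cells (193 and 313 CPM) and of 0.35 in the low cells (127 and 162 CPM), and *Lgals3* had 1.33 in the high and 0.90 in the low cells. In WT HFD over WT CD *Cd9* was higher in both states (1.005 and 1.83), whereas *Fabp5* was higher in the low cells (1.47) and slightly lower in the high cells (-0.18). In high cells thinned to 3000 UMIs before the gates, the *Fabp5* ratio of KO HFD over WT HFD turned to -0.62 and the *Cd9* ratio of WT HFD over WT CD to -0.33.

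Among the related lists, the further phagocyte genes had 6 of 11 genes at a 1.5-fold higher level in WT HFD than in WT CD, which were *Fabp4* (126 and 457 CPM), *Cd63* (238 and 456), *Cd36* (203 and 348), *Plin2* (139 and 338), *Mmp12* (89.0 and 265) and *Igf1* (68.1 and 129), with a list median of 0.78. *Cd36* is a fatty-acid and oxidized-lipoprotein scavenger receptor, *Plin2* coats lipid droplets and *Fabp4* is a fatty-acid carrier of adipocytes, endothelium and macrophages. In KO HFD over WT HFD, 1 of 11 was higher (*Lpl*, 450 and 870 CPM) and 1 lower (*Fabp4*, 457 and 142). No lysosomal gene of 15 reached 1.5-fold in either comparison (medians 0.30 and 0.04), although *Ctsd* did in the first. Of the resident macrophage genes 4 of 10 were higher in WT HFD than in WT CD, among them *Pf4* (1440 and 2589 CPM), and 1 was lower in KO HFD than in WT HFD (*Timd4*, 61.3 and 20.2). The scavenger receptor *Msr1* of the lipid list was the 1 of 6 that was higher in WT HFD (38.3 and 87.4 CPM) and the 1 of 5 that was lower in KO HFD (45.7 CPM). TREM2 signalling had 1 of 7 higher in the first comparison (*Ms4a7*, 90.8 and 165 CPM) and 0 of 7 in the second, and the monocyte gene *Plac8* was 1 of 2 lower in the first (87.7 and 23.2 CPM).

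Over all genes, the largest ratios in the gate included immunoglobulin genes, which are genes of other cells, and leading genes of a macrophage-like cluster. In WT HFD over WT CD the 5 highest were *Lrg1* (log2 ratio 4.17), *Serpinb2* (3.76), *Slpi* (3.28), *Selp* (3.26) and *Prg4* (3.19), and the 5 lowest were immunoglobulin genes: *Jchain* (1525 CPM and 0), *Igkv12-44* (52.1 CPM and 0), *Igkc* (-6.52), *Ighm* (-4.46) and *Iglc2* (-3.44). In KO HFD over WT HFD *Jchain* (0 and 267 CPM), *Igkc* (3.17) and *Eif3j2* (3.05) were followed by *Gpnmb* (2.01) and *Spp1* (1.91). Both passed the minimum of 50 CPM through KO HFD alone, at 22.02 and 32.2 CPM in WT HFD. Their rank among the 2473 genes thus rests on the library where they were high. The 5 lowest were *Serpinb2* (-3.31), *Tgfb2* (-2.97), *Igfbp5* (-2.75), *Il6* (-2.48) and *Lrg1* (-2.41). *Serpinb2*, *Slpi* and *Selp* are among the leading genes of the *Saa3*/*Alox15* cluster, which gave 4.12%, 14.2% and 3.81% of the gate in the 3 libraries.

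A few cells carried much of the signal for *Spp1*, *Gpnmb* and *Fabp5*. In KO HFD 1 cell held 305 of the 525 *Spp1* UMIs of the gate (58.1%) and another held 199 of the 387 *Gpnmb* UMIs (51.4%) and 255 of the 1272 *Fabp5* UMIs (20.05%). Without the single cell with most UMIs of each gene, the KO HFD levels went from 121 to 50.9 CPM for *Spp1*, from 88.9 to 43.6 CPM for *Gpnmb* and from 292 to 236 CPM for *Fabp5*. Without the top 5 cells they were 23.2, 13.99 and 160 CPM, against 15.2, 5.34 and 199 CPM in WT HFD treated the same way. The log2 ratio of KO HFD over WT HFD was then 0.61 for *Spp1* and 1.39 for *Gpnmb*, smaller than with all cells but still past 1.5-fold at levels under 50 CPM, and that of *Fabp5* turned to -0.31. *Lgals3* was also uneven between cells: in KO HFD 9.15% of its UMIs lay in the top cell, 31.02% in the top 5 and 50% or more in 13 of 367 cells (3.54%). Without the top 5 cells of each library it stood at 778, 953 and 1873 CPM.

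**Figure D4:**
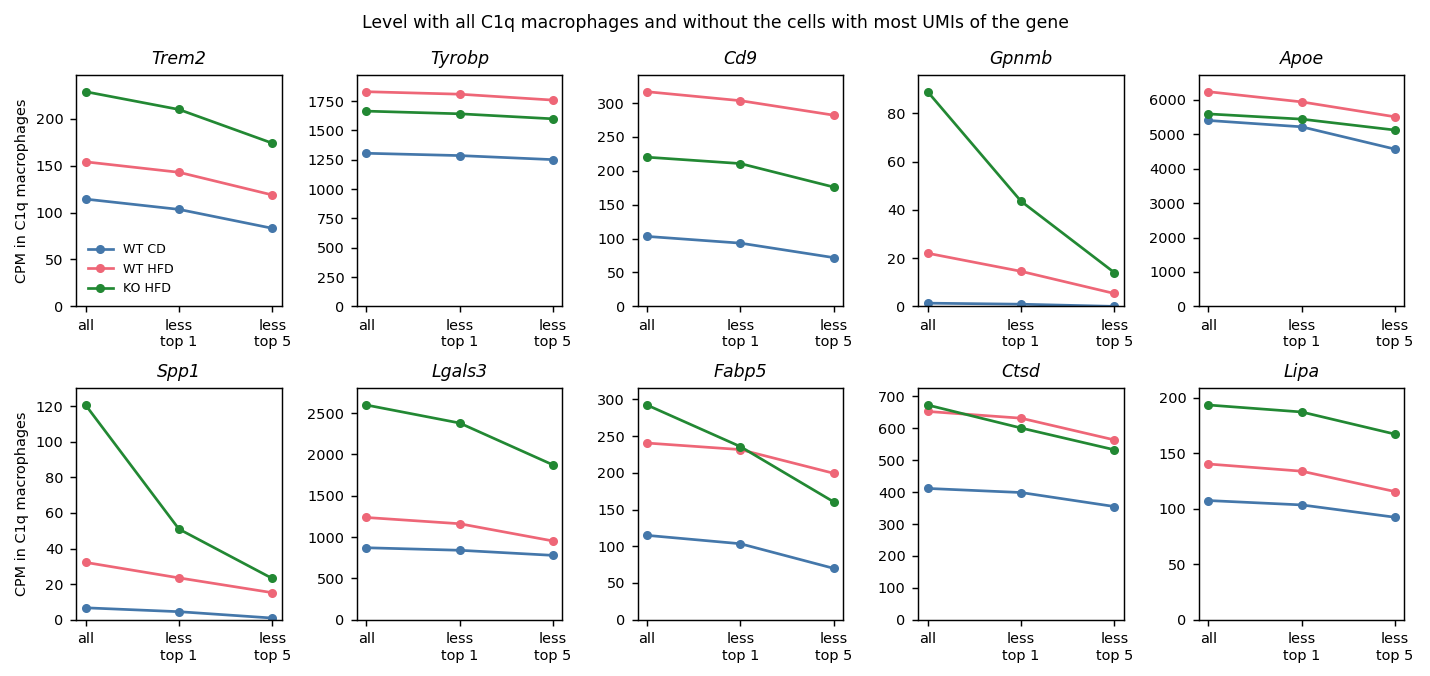
CPM of each gene in C1q macrophages of each library with all cells, without the 1 cell and without the 5 cells that held most UMIs of that gene (linear axes from 0). The lines of *Spp1* and *Gpnmb* in KO HFD fall from 121 to 23.2 and from 88.9 to 13.99 CPM, and stay above those of the other libraries.

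These cells were high for several of the genes at once. For each gene the mark was set for the 48 C1q macrophages (the top 5%) with the highest within-cell CPM. Fewer than 48 cells held a *Gpnmb* UMI, so marks that rest on a UMI of that gene were fewer. After thinning too few cells held a UMI of *Gpnmb* or *Spp1* to fill the top 5%. A cell was counted by how many genes marked it. This uses the values of the 10 genes, so it is a description. The cut was set over the 3 libraries together, and each gene had its lowest level in the gate in WT CD. Few marked cells in WT CD thus follow in part from the rule and are not a result apart from those levels. Cells marked for 5 or more genes numbered 0 of 194 in WT CD (0 to 1.88%), 12 of 395 in WT HFD (3.04%, 1.58 to 5.25) and 12 of 367 in KO HFD (3.27%, 1.70 to 5.64). At 3 or more genes the counts were 1, 22 and 24, whereas 20.6%, 28.1% and 25.3% of cells were marked for at least 1 gene. A count of 0 of 194 leaves room for a share that overlaps the lower bounds of both high-fat libraries. After thinning to 3000 UMIs the counts at 5 or more were 0 of 185, 7 of 382 and 8 of 353, so such cells were also found at equal depth, although their median was 17359.5 UMIs per cell against 9177.5 in the gate.

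The 24 cells were spread over both states (11 high and 13 low) and over 2 clusters, 9 in the one led by *Cd209f* and *Folr2* and 15 in the one led by *Mmp12*, *Retnla* and *Lyz1*; none lay in the *Saa3*/*Alox15* cluster, and none was called a doublet by Scrublet. All 24 cells were *Trem2*-positive. The split into states is a raw count of at least 2 UMIs, which a deep cell reaches more readily at a given level. The 59 gated cells with exactly 2 such UMIs stood at 519 CPM of *Spp1*, so much *Spp1* of the high state lay at the threshold. The most marks in a cell were 8. Among the cells with 8 marks was a *Folr2*/*Cd163*-low cell of KO HFD with 36934 UMIs. It held 35 UMIs of *Trem2*, 160 of *Tyrobp*, 24 of *Cd9*, 199 of *Gpnmb* and 289 of *Apoe*. It also held 24 of *Spp1*, 240 of *Lgals3*, 255 of *Fabp5*, 336 of *Ctsd* and 19 of *Lipa*. Another, a *Folr2*/*Cd163*-high cell of KO HFD with 31197 UMIs, held 89 UMIs of *Trem2*, 305 of *Spp1*, 83 of *Gpnmb* and 690 of *Lgals3*. A *Folr2*/*Cd163*-high cell of WT HFD with 11893 UMIs was also marked for 8 genes and held 25 UMIs of *Trem2*, 0 of *Spp1* and 203 of *Lgals3*. Cells high for most of the genes were thus found with and without *Spp1* UMIs.

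**Figure D5:**
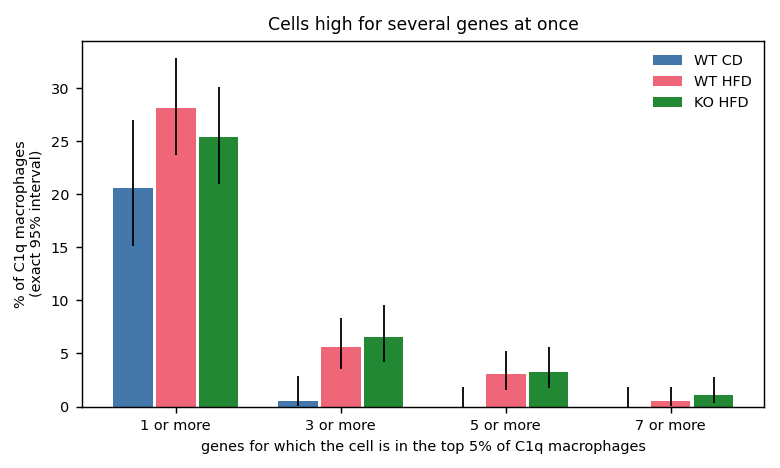
Share of C1q macrophages of each library that lay in the top 5% for at least 1, 3, 5 or 7 of the 10 genes (bars from 0; lines are exact 95% binomial intervals). Cells high for 5 or more genes were found in WT HFD (3.04%) and KO HFD (3.27%) and in 0 of 194 cells of WT CD. The top 5% was set over the 3 libraries together, which leaves fewer marks to WT CD, where each gene was lowest.

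Genes outside the 10 that were not used to mark these cells were read in them against the other C1q macrophages of the same library. Of 13 further phagocyte genes with at least 50 CPM in these or the other cells of each high-fat library, 9 were at least 2-fold higher in both libraries, compared with 5.397% (132) of the 2446 genes past the same minimum. The 9 included *Acp5*, the tartrate-resistant phosphatase (log2 ratio 4.46 in WT HFD and 3.79 in KO HFD), the elastase *Mmp12* (4.91 and 2.27), *Cd63* (2.04 and 2.52), *Cd36* (2.04 and 1.91) and *Plin2* (1.90 and 2.47). Of 16 lysosomal genes 6 were higher, among them the proton pump subunit *Atp6v0d2* (5.01 and 4.43), *Ctsl* (1.75 and 3.42) and *Ctsb* (1.65 and 1.90), and of 8 lipid genes 4 were, namely *Abcg1* (2.60 and 2.04), *Nr1h3* (2.20 and 2.47), *Nceh1* (2.29 and 1.74) and *Soat1* (2.08 and 1.75). These 4 genes encode a cholesterol exporter, the oxysterol receptor LXR-alpha, a cholesteryl ester hydrolase and the enzyme that re-esterifies cholesterol. *Abcg1*, *Nr1h3*, *Nceh1*, *Acp5* and *Atp6v0d2* stood under 50 CPM in the gate of both high-fat libraries and passed the minimum through the picked cells alone. Over all list genes with a ratio in both libraries, 4 of 15 lipid, 6 of 18 lysosomal and 9 of 13 further phagocyte genes were higher. Of TREM2 signalling 1 of 6 was higher, and of 9 resident macrophage genes 7 were at least 2-fold lower in both libraries, compared with 7.93% (194) of the 2446 genes. No test was made, since the cells were picked by genes that may vary with these. Of the 24 cells, 15 lay in the *Mmp12*/*Retnla* cluster, which gave 18.7% and 34.1% of the gate in WT HFD and KO HFD. The picked and the other cells thus differed in cluster make-up, and its part in these ratios was not tested.

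The 24 cells, of 956 in the gate, set part of the library ratios. Without them the log2 ratios of WT HFD over WT CD were -0.20 for *Trem2*, 0.05 for *Lgals3*, 0.05 for *Lipa* and 0.43 for *Ctsd*, so that 2 genes, *Cd9* (1.44) and *Fabp5* (0.87), remained past 1.5-fold. In KO HFD over WT HFD the ratio of *Spp1* was 0.09 and that of *Fabp5* -0.54, whereas *Trem2* (0.57) and *Lgals3* (0.89) were close to their values in all cells, *Gpnmb* went to 3.104 at low counts and *Cd9* to -0.75. The cells were picked by the members' values and WT CD held none, so leaving them out is not neutral between the diets. When instead the 5 cells with most UMIs of the gene were left out of every library, WT HFD over WT CD was 0.51 for *Trem2* and 0.29 for *Lgals3*, and KO HFD over WT HFD was 0.55 and 0.98.

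Within the gate, *Trem2*-positive cells carried more *Apoe* than *Trem2*-negative cells in each library (log2 ratio 0.87, 1.04 and 0.41) at similar depth, with median UMIs of 9227 against 9835.5, 9295 against 9344.5 and 9192 against 8348.5. Over both states together *Tyrobp* was nearly level between them (0.09, 0.04 and 0.21). Within the *Folr2*/*Cd163*-high cells of WT CD the ratio was 0.63 for *Tyrobp*, 0.59 for *Lgals3*, 0.69 for *Ctsd* and 0.05 for *Lipa*. Over both states together *Lgals3* (-0.09, 1.45 and 1.92), *Lipa* (-0.02, 1.23 and 1.11) and *Ctsd* (-0.10, 0.67 and 1.29) were level in WT CD. These genes were higher in *Trem2*-positive cells of both high-fat libraries. Without the 24 cells the values in WT HFD and KO HFD were 0.74 and 1.11 for *Lgals3*, 0.69 and 0.73 for *Lipa* and 0.21 and 0.48 for *Ctsd*. Over all cells of the gate *Fabp5* (-0.25, 0.60 and 2.04), *Cd9* (0.70, -0.22 and 1.06) and *Spp1* (0.36, -0.05 and 3.18) had no common direction. Without the 24 cells their values in WT HFD and KO HFD were 0.22 and 0.61, -0.81 and 0.42, and -2.01 and -0.02. By state, with the 24 cells kept, *Fabp5* stood at 0.80, 2.002 and 3.052 in high and -0.85, 0.68 and 1.48 in low cells. *Cd9* stood at 0.06 (-0.67 to 0.79), 1.72 and 2.019 in high and 1.06, -0.48 and 0.50 in low cells. The mixed signs of both genes thus lay in the low cells. In WT HFD these cells included 56 of the *Saa3*/*Alox15* cluster, 8 of them *Trem2*-positive, with *Cd9* at 898 CPM. The part of that cluster was not tested. *Gpnmb* stood at 3.29, 51.0 and 182 CPM in *Trem2*-positive and at 0, 0.413 and 1.34 CPM in *Trem2*-negative cells, and without the 24 cells at 4.995 and 41.3 CPM in the positive cells of the high-fat libraries. All 24 cells were *Trem2*-positive and were picked for high member values, so each value without them is shifted by that choice and is a description only. Of the 45 pairs of members at 3000 UMIs per cell, *Spp1* and *Gpnmb*, named after their values were seen, shared cells most often against the product of their shares: 3 cells of WT HFD and 6 of KO HFD, where the product gives 0.419 and 0.861. Other pairs lay below the product, such as *Apoe* and *Lgals3* with ratios of 0.77, 0.85 and 0.85 in the 3 libraries.

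The pattern of the 10 genes over 57 points (19 populations in 3 libraries) was compared with that of every other gene. The mean of their standardized log2(CPM + 1) values had a Pearson r of 0.84 with *Ctsa*, 0.79 with *Lamtor4*, 0.78 with *Ctsb*, 0.77 with *Atp6v0b* and 0.76 with *Lamp1*. These encode a lysosomal carboxypeptidase, a part of the Ragulator complex on the lysosome, cathepsin B, a subunit of the proton pump and a lysosomal membrane protein. Among the members, *Trem2* (0.75), *Lipa* (0.70) and *Ctsd* (0.68) were closest to the mean they are part of and *Cd9* (0.10) was farthest from it. Points of a library share its depth and free RNA, so r is a description, and between pairs of members it ran from -0.52 (*Tyrobp* and *Cd9*) to 0.75 (*Tyrobp* and *Lgals3*).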

How the data were processed

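Diaphragm mononuclear cells of 3 libraries were analysed, 1 for each group. The authors deposited raw UMI counts per gene and cell barcode from Cell Ranger 6.1.1 (per the submitters' processing notes; the deposited matrix headers give another release), beside barcode and gene lists of aligned reads. All 12275 deposited barcodes were used, with no further filter on cells. Counts were summed per library and population and divided by that population's total UMIs (CPM). The 2 contrasts within libraries were tested with edgeR 4.0.16 (R 4.3.3; TMM, quasi-likelihood, library block, Benjamini-Hochberg adjustment over all genes, threshold 0.05), which was tested on simulated data; between libraries 1.5-fold and 50 CPM were used. Clusters (scanpy 1.11.5, Python 3.11.15; 2000 variable genes, 30 principal components, 15 neighbours, Leiden resolution 1; the 10 genes and the gate genes left out) were named from fixed markers, so names are rebuilt and may differ from the study's. Scrublet (expected rate 0.06) called 1.26%, 1.09% and 1.33% of cells doublets (3, 9 and 2 in the gate), which were kept. The median UMIs per cell were 7632.5, 8041.5 and 7554.

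The 10 genes, gates and lists were chosen with earlier results of these data known. Named genes were the 10 members, the list genes past the threshold with the highest mean CPM, the 5 genes most like the members, and the 5 highest and 5 lowest genes of the state and library comparisons; list genes named in the 24 cells high for 5 or more members, and the clusters and cells singled out, were chosen after their values were seen. Alternatives were other gates and cell filters, thinning to 3000 UMIs, DESeq2 1.42.0, other scaling, no block and each library left out.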

Additional observations from a re-analysis of the deposited data

Results flagged for a closer look

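The log2 ratio of KO HFD over WT HFD went in opposite directions in the macrophage states for 2 of the 10 genes, by more than counting error in each state. For *Cd9* it was 0.55 in *Folr2*/*Cd163*-high and -0.99 in *Folr2*/*Cd163*-low cells, a difference of 1.54. For *Fabp5* it was 1.89 in the high and -0.36 in the low cells, a difference of 2.25. In the high cells of KO HFD 5 cells held 421 of the 611 *Fabp5* UMIs; without the top 5 cells of each library the ratio was 1.55 in the high and -1.08 in the low cells, whereas after thinning before the gates it was -0.62 in the high cells, which removes the opposite directions. With 1 library per group the difference was not tested. The cluster led by *Saa3* and *Alox15*, which held 28.4% of the low cells of WT HFD and 7.69% of those of KO HFD, was read at 898 and 840 CPM of *Cd9* and 607 and 394 CPM of *Fabp5* in these libraries, and 1 low cell of KO HFD held 255 *Fabp5* UMIs; their part in the differences was not tested.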

How the results depend on the processing

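The 7 genes higher in C1q macrophages than in other cells numbered 7 or 8 under all 16 alternatives, and 7 to 8 on leaving out 1 library. The state counts were less stable. The 2 genes higher in the low state became 1 with a gate of 3 C1q UMIs, without doublets or without shared barcodes, 4 after thinning or with the split at 4 UMIs, and 0 without the library block, and ranged from 1 (without WT CD) to 4 (without KO HFD) when 1 library was left out. The 2 genes higher in the high state became 1 after thinning, without the *Saa3*/*Alox15* cluster, or without the block, with a range of 1 (without KO HFD) to 2 on leaving out 1 library. The 3 genes past 1.5-fold in WT HFD over WT CD became 5 at 20 CPM or with no minimum, 7 at the lower fold tried, 4 without the *Saa3*/*Alox15* cluster (*Fabp5* lost, *Trem2* and *Lgals3* gained) and 2 after thinning or without the 24 cells (*Ctsd* lost), and the 3 in KO HFD over WT HFD, all higher, became 6 at that fold, of which 5 were higher and 1 (*Cd9*) lower; after thinning they were 2 higher and 1 (*Cd9*) lower, without the 24 cells 1 higher (*Lgals3*) and 1 (*Cd9*) lower, and without the cluster 4 higher, as with a gate of 10 C1q UMIs. *Trem2* between states turned to 0.49 after thinning, *Spp1* to 2.38 with the split at 4 UMIs and ranged from -1.21 to 1.94 on leaving out 1 library, and in the high cells after thinning *Cd9* in WT HFD over WT CD turned to -0.33 and *Fabp5* in KO HFD over WT HFD to -0.62; the cause was not tested. Leaving out cells by cluster, by the 5-gene rule, by most UMIs of a gene or by shared barcode was chosen after seeing the data. No paired analysis between groups was possible because each group has 1 library, whereas the gate and state contrasts were paired within libraries by the block. *Gpnmb* and *Spp1* rest on few UMIs, which limits their ratios.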
